A study of Mus musculus with 7 samples.

Results

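Transcripts of Kupffer cells, the resident macrophages of the liver, were present in RNA libraries of isolated mouse hepatocytes. The level of most differed several-fold among the ALAS1/2-KO libraries and less among the wild-type libraries. The genes described are a fixed list of 34 Kupffer cell and macrophage symbols, taken by name but chosen with earlier results of these data known. Of these, 33 were among the 12151 genes of the deposited table, and Ms4a7, a membrane protein of macrophages, was not analysed here. Hepatocytes were profiled by messenger RNA sequencing in 4 libraries labelled ALAS1/2-KO and 3 wild-type (WT) libraries. In the ALAS1/2-KO group, a conditional allele of Alas1, which encodes the aminolevulinic acid synthase of most tissues, was to lose exons 4 and 5 through inducible Cre, and Alas2, its erythroid relative, was to be lowered with siRNA carrying GalNAc, a sugar that hepatocytes take up. Tamoxifen is named as the treatment for ALAS1/2-KO alone, and WT hepatocytes are labelled as having none, so the effects of the alleles, the drug and the siRNA cannot be told apart. Sources used here do not give the driver of Cre or the age, sex and strain of the mice.

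Kupffer cells sit in the liver sinusoids, where they clear bacteria, complement-coated particles and aged red cells from portal blood, and recycle the heme iron of those cells. Their identity rests on signalling through the receptor CSF1R and on the transcription factor PU.1, encoded by Spi1, and they carry lineage-restricted surface proteins such as the lectin CLEC4F. Hepatocyte preparations from digested liver can keep some of these cells or their RNA. In such bulk libraries, fewer macrophages and less RNA per macrophage cannot be told apart.

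The libraries held 27933939 to 30195635 reads over the listed genes in ALAS1/2-KO and 22916097 to 34048680 in WT, as recovered from the deposited values. CPM here means reads scaled to the library size the authors used. Alas2 stood at 0.44 ± 0.26 CPM in ALAS1/2-KO and 11.3 ± 5.18 CPM in WT (SD, n = 4 and 3), and Alas1, whose exons outside the deletion are also counted, at 322 ± 31.7 and 209 ± 109 CPM. The tissue label held in all 7 libraries: Alb, the main hepatocyte secretory product, stood at 49928 CPM or more. Each of the 33 macrophage genes was also detected in every library, with 64 to 14056 reads per gene and library. Whether replicates are separate animals is not stated, and the p-values refer to the variation among these preparations, part of which may be technical.

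Promoter sequence is shown for 4 members, chosen after their levels were seen. They are C1qb and C1qc, whose levels kept a near-constant ratio, Vsig4, a Kupffer cell identity gene that moved with them, and Mpeg1, which departed from them. Each window runs from 250 bases before to 50 after the annotated start (RefSeq, GRCm38.p6), 5′ to 3′ on the strand of the gene. Capitals mark GAGGAA, the core letters of the PU.1 motif, or its reverse complement TTCCTC. The windows are chr4:136886151-136886450 (minus strand) for C1qb, chr4:136892865-136893164 (minus strand) for C1qc, chrX:96293389-96293688 (minus strand) for Vsig4 and chr19:12460520-12460819 (plus strand) for Mpeg1.
C1qb: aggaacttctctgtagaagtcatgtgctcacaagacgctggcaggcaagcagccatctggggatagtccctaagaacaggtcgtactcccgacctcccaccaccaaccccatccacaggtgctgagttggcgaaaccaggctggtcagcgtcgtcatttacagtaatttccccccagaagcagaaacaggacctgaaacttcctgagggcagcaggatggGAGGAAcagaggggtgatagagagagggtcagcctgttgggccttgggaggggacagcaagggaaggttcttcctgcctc
C1qc: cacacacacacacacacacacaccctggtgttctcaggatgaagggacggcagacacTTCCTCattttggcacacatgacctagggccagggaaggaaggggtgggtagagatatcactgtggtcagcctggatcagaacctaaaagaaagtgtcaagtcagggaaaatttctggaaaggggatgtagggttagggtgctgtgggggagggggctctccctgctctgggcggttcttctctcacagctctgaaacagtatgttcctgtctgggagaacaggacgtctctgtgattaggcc
Vsig4: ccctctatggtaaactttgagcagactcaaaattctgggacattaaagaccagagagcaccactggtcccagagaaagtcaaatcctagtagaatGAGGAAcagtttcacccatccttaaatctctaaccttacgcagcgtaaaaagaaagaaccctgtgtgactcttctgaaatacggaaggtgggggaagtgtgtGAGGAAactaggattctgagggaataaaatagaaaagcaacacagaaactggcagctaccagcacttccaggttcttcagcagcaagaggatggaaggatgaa
Mpeg1: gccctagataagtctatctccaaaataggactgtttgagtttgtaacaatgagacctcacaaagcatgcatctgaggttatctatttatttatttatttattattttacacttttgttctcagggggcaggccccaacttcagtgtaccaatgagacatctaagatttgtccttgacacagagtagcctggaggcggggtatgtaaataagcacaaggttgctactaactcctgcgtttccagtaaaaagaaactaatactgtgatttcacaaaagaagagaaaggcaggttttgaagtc
The letters occurred at 1 place in the C1qb and C1qc windows, at 2 in Vsig4 and at 0 in Mpeg1. Over all members with a promoter in the table (25 genes), 16 of 30 windows held them, or 53.3%. The share was 28.3% of the 32851 windows of that length for all genes and 26.3% of the 12075 windows of genes tested. The 4 windows shown were picked by level, so they cannot tie the letters to the levels. A match describes letters and is not a binding site.

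Across the 33 genes, no difference between ALAS1/2-KO and WT passed the test, and the 4 ALAS1/2-KO libraries lay far apart. ALAS1/2-KO replicate 1 was the lowest of the 7 libraries for 33 of 33 genes, and replicate 2 the second lowest for 29. The share of reads from mitochondrial genes was 16.8% in replicate 1, the lowest of the 7, and 25.3%, 27.3% and 25.8% in replicates 2 to 4, against 38.4%, 43.2% and 31.9% in WT; its part in the macrophage differences was not tested. Replicates 3 and 4 stood near or above WT. As a median over the members, the level was 21.7%, 64.5%, 125% and 118% of the WT mean in ALAS1/2-KO replicates 1 to 4. Replicate 1 was below 50% of the WT mean for 30 of 33 members, where 13.5% of all genes tested were. Replicates 2, 3 and 4 were below it for 3, 0 and 0 members, where 7.62%, 3.4% and 4.26% of genes were. Replicate 1 was below the lowest WT library for 33 members and replicate 2 for 30, against 36.3% and 32.5% of genes; both were for 30, against 24%. Replicates 3 and 4 were both above the highest WT library for 17 members, against 22.5%. The order of replicate 1 below replicate 2 below both others held for 32 members, against 18.7% of all genes. Hpgd was below the lowest WT library in all 4 ALAS1/2-KO libraries and was the only member whose groups did not overlap, where 22.7% of all genes did not.

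**Figure D1:**
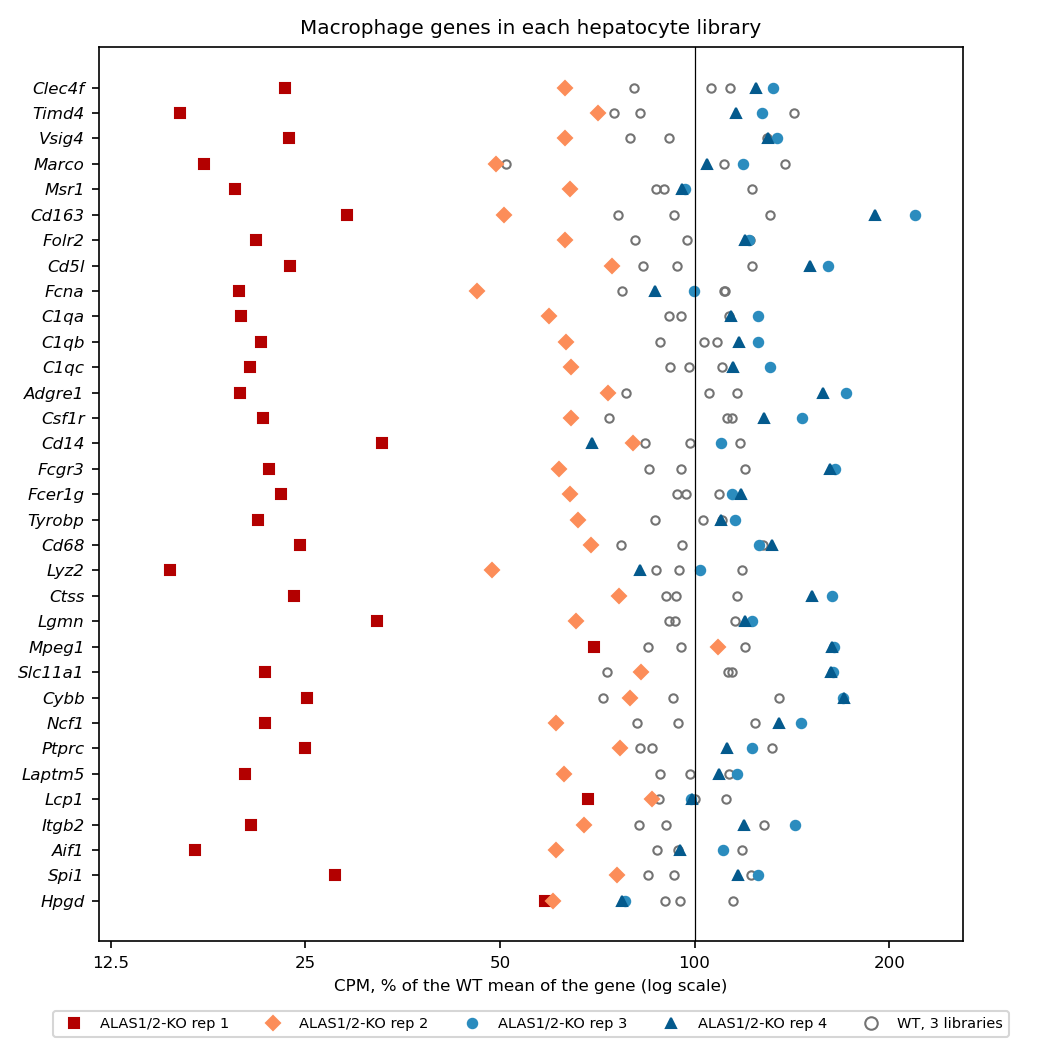
Level of each of the 33 macrophage genes in each library as a percentage of that gene's WT mean (horizontal log axis); filled symbols are the 4 ALAS1/2-KO libraries and open circles the 3 WT libraries. ALAS1/2-KO replicate 1 lies between 15.4% and 69.9%, replicate 2 between 46.1% and 109%, and replicates 3 and 4 mostly above 100%.

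In limma, a linear model fitted across 12105 genes, 0 of 33 members were called higher and 0 lower at a Benjamini-Hochberg adjusted p under 0.05, against 2.91% and 2.19% of all genes tested (5.1% either way). One member, Hpgd, had an unadjusted p under 0.05, where 23.7% of all genes did, and limma voom on recovered reads also called 0, against 2.71% of genes higher and 2.53% lower (5.24% either way). With array weights, which give less weight to libraries that vary more, Hpgd alone was called lower and 0 members higher, against 8.02% and 8.51% of genes. Fold changes are ALAS1/2-KO over WT on the log2 scale. Their median over the members was -0.48, against -0.02 over all genes, and 32 of the 33 were below 0, where 52% of all genes were. The standard errors behind them were wide, with a median of 0.60 against 0.16 for all genes tested. These genes differed together from library to library, so the shared sign is not a count of independent genes. Leaving out ALAS1/2-KO replicate 1 alone moved the median to 0.03.

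The identity and scavenger receptors of Kupffer cells showed this spread in full. Clec4f (ENSMUSG00000014542.3, chromosome 6, 83644542 to 83656187, mm10, minus strand), a lectin restricted to Kupffer cells in the mouse, stood at 51.0, 139, 291 and 273 CPM in ALAS1/2-KO replicates 1 to 4, against 249, 177 and 233 CPM in WT replicates 1 to 3. The ALAS1/2-KO values spanned 5.70-fold and enclosed the whole WT range (log2 fold change -0.50, SE 0.58, limma adjusted p = 0.646). Vsig4, a receptor for complement C3 fragments, stood at 14.7, 39.3, 83.8 and 80.9 CPM in ALAS1/2-KO and at 56.9, 49.5 and 80.7 CPM in WT (limma adjusted p = 0.683). Timd4, which binds phosphatidylserine on dying cells and marks long-lived resident macrophages, stood at 3.63, 16.1, 28.9 and 26.4 CPM in ALAS1/2-KO and at 18.7, 17.0 and 32.4 CPM in WT (limma adjusted p = 0.658). All of them placed replicates 1 and 2 of ALAS1/2-KO below the WT libraries and the other two within or above the WT range.

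Marco, a scavenger receptor for bacteria, was the most uneven member within WT. It stood at 10.3, 29.1, 70.2 and 61.7 CPM in ALAS1/2-KO, against 30.2, 65.5 and 81.5 CPM in WT, where replicate 1 was 2.70-fold below replicate 3 (limma adjusted p = 0.588). Cd163, the scavenger receptor for haptoglobin-bound hemoglobin and so an entry point of heme, stood at 11.6, 20.4, 88.0 and 76.2 CPM in ALAS1/2-KO, against 52.6, 30.5 and 37.3 CPM in WT. Replicates 3 and 4 were thus at 219% and 190% of the WT mean, the highest percentages of any member, while replicates 1 and 2 were at 29.0% and 50.8% (limma adjusted p = 0.926). Msr1, a class A scavenger receptor, and Folr2, a folate receptor of resident macrophages, were at 19.5% and 21.004% of the WT mean in ALAS1/2-KO replicate 1. Their replicate 3 values were 96.5% and 121%.

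The secreted members included the one with the highest level per kilobase in WT. Cd5l, a scavenger protein that supports macrophage survival, stood at 63.2, 199, 429.5 and 402 CPM in ALAS1/2-KO and at 251, 222 and 327 CPM in WT. ALAS1/2-KO replicates 1 and 2 lay below, and replicates 3 and 4 above, every WT library (limma adjusted p = 0.824). Fcna, a ficolin that starts the lectin pathway of complement, averaged 48.9 ± 28.5 CPM in ALAS1/2-KO and 77.4 ± 15.2 CPM in WT (SD, n = 4 and 3), with a log2 fold change of -0.89, among the lowest of all members (SE 0.54, limma adjusted p = 0.359). Its replicate 2 in ALAS1/2-KO, at 46.1% of the WT mean, was the lowest of all members in that library. Per kilobase of exon, Cd5l (134 CPM per kb in ALAS1/2-KO and 131 in WT) ranked highest in WT, followed by C1qa, C1qb and Clec4f. Ptprc, with its long annotated exons, ranked lowest, at 1.02 and 1.22 CPM per kb.

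**Figure D2:**
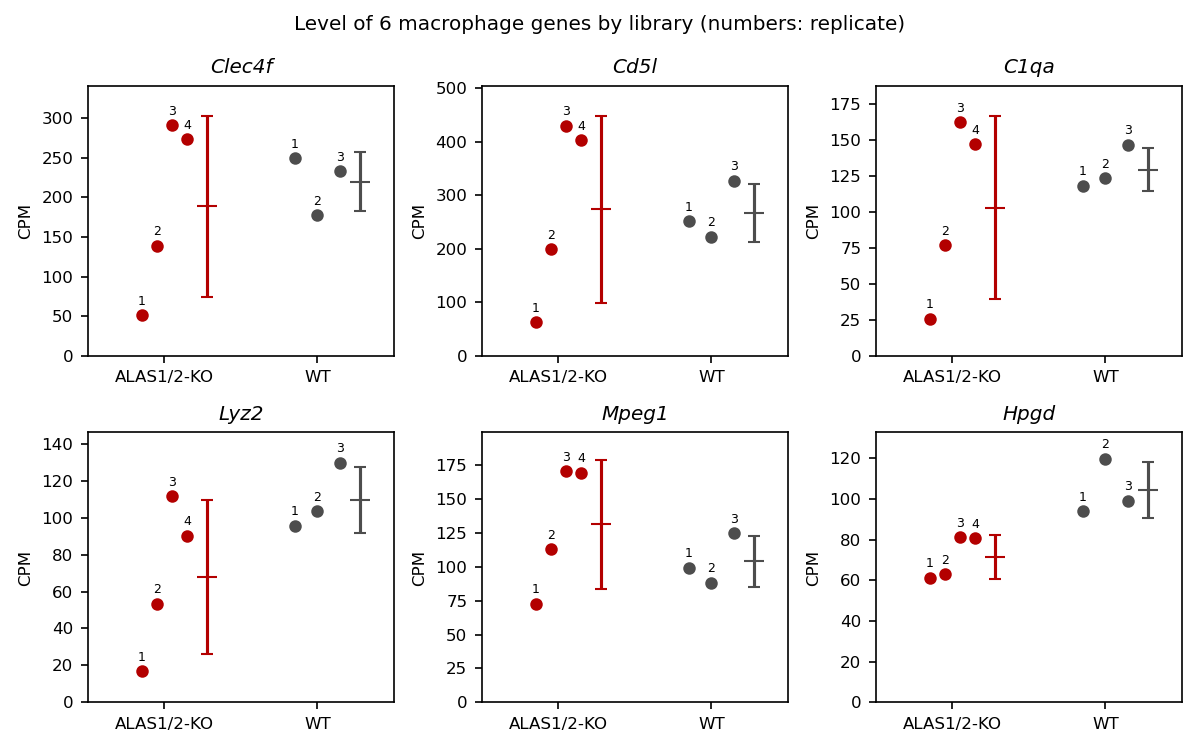
CPM of 6 members in each library (points, numbered by replicate) with the group mean and SD beside them (bars; n = 4 ALAS1/2-KO, n = 3 WT). Clec4f, Cd5l, C1qa and Lyz2 are lowest in ALAS1/2-KO replicate 1, Mpeg1 keeps 72.7 CPM there, and Hpgd lies between 61.3 and 81.3 CPM in ALAS1/2-KO and between 94.1 and 119.9 CPM in WT.

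The 3 chains of C1q, the recognition molecule of the classical complement pathway, are made mainly by macrophages from neighbouring genes on chromosome 4 (mm10, minus strand): C1qb at 136880129 to 136886187, C1qc at 136889804 to 136893065 and C1qa at 136895917 to 136898803. C1qa stood at 25.8, 77.1, 162 and 147 CPM in ALAS1/2-KO and at 118, 123 and 147 CPM in WT. C1qb stood at 23.6, 70.2, 139 and 130.0 CPM in ALAS1/2-KO and at 115, 98.0 and 120.0 CPM in WT. C1qc stood at 22.7, 71.4, 145 and 127 CPM in ALAS1/2-KO and at 109, 101 and 122 CPM in WT. In each chain, ALAS1/2-KO replicates 1 and 2 were below all WT libraries and the other two were above the highest. Limma gave adjusted p = 0.564, 0.591 and 0.6 for C1qa, C1qb and C1qc. While their sum varied 6.19-fold over the 7 libraries, the ratio of C1qc to C1qb, both in CPM, stayed at 0.998 ± 0.0382 in ALAS1/2-KO and 1.00 ± 0.0455 in WT (SD, n = 4 and 3). C1qa to C1qb was 1.12 ± 0.0359 in ALAS1/2-KO and 1.17 ± 0.121 in WT. The highest ratio was 1.10 times the lowest for C1qc over C1qb and 1.22 times for C1qa over C1qb.

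Surface receptors and their signalling adaptors followed the same order. Csf1r, the receptor for the macrophage growth factors CSF1 and IL-34, stood at 23.6, 71.0, 162 and 141 CPM in ALAS1/2-KO, against 123, 81.1 and 126 CPM in WT (limma adjusted p = 0.704). Adgre1, which encodes the macrophage antigen F4/80, stood at 6.32, 23.4, 54.7 and 50.4 CPM in ALAS1/2-KO, against 33.6, 25.01 and 37.1 CPM in WT (limma adjusted p = 0.826). Its 8.65-fold span within ALAS1/2-KO was the widest of the members. Fcgr3, a receptor for IgG whose sequence is shared in part with other Fc receptors, was at 22.0%, 61.7%, 165% and 162% of the WT mean in ALAS1/2-KO replicates 1 to 4. Cd14, the co-receptor for bacterial lipopolysaccharide, had the lowest CPM per kilobase of these receptors, with levels of 4.31 ± 1.88 CPM in ALAS1/2-KO and 5.90 ± 1.00 CPM in WT (SD, n = 4 and 3), and its replicate 4 in ALAS1/2-KO, at 69.4% of the WT mean, was below its replicate 2. Fcer1g and Tyrobp, the small adaptors that carry activation motifs for Fc and other myeloid receptors, tracked each other: Fcer1g over Tyrobp, both in CPM, was 1.04 ± 0.0586 in ALAS1/2-KO and 1.02 ± 0.141 in WT.

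Lysosomal and phagosomal members were all lowest in ALAS1/2-KO replicate 1, at 15.4% to 69.9% of the WT mean. Lyz2, lysozyme of myeloid cells and near-identical to Lyz1, so that reads between them are uncertain, stood at 16.9, 53.4, 112 and 90.3 CPM in ALAS1/2-KO, against 95.6, 104 and 129.6 CPM in WT. ALAS1/2-KO replicate 1 was at 15.4% of the WT mean, the lowest percentage of any member, and the log2 fold change of -0.98 was the largest in size (SE 0.61, limma adjusted p = 0.37). Ctss, cathepsin S, which trims the MHC class II invariant chain, stood at 22.1, 70.5, 150.4 and 140.0 CPM in ALAS1/2-KO, against 86.3, 83.1 and 107 CPM in WT (limma adjusted p = 0.83). Cd68, a lysosomal membrane glycoprotein, and Slc11a1, the phagosomal metal transporter NRAMP1, were at 24.5% and 21.6% of the WT mean in ALAS1/2-KO replicate 1.

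Mpeg1, perforin-2, a pore-forming protein of phagosomes, was the only member with a log2 fold change above 0. It stood at 72.7, 113, 170.4 and 169 CPM in ALAS1/2-KO, against 99.1, 88.1 and 124 CPM in WT (0.27, SE 0.31, limma adjusted p = 0.633). Replicate 1 kept 69.9% of the WT mean, and replicates 3 and 4, at 164% and 163%, were above every WT library. Lgmn, the lysosomal protease legumain, was at 32.3% of the WT mean in replicate 1. The phagocyte oxidase was represented by Cybb, its membrane catalytic subunit, and Ncf1, the cytosolic organizer p47phox. Cybb was at 25.2%, 79.5%, 169.6% and 170.4% and Ncf1 at 21.7%, 61.0%, 146% and 135% of the WT mean in ALAS1/2-KO replicates 1 to 4.

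Genes shared by many leukocytes behaved like the Kupffer cell genes, with one exception. Ptprc, which encodes CD45, stood at 5.56, 17.1, 27.3 and 25.03 CPM in ALAS1/2-KO, against 19.2, 18.3 and 29.4 CPM in WT (limma adjusted p = 0.658). Laptm5, a lysosomal membrane protein, Itgb2, the β2 integrin chain, and Aif1, an actin-binding protein of macrophages, were at 16.9% to 20.6% of the WT mean in ALAS1/2-KO replicate 1. Lcp1, the actin bundler L-plastin, was the exception, at 62.3 ± 10.2 CPM in ALAS1/2-KO and 70.9 ± 8.35 CPM in WT (SD, n = 4 and 3), with 68.3% of the WT mean in replicate 1. Spi1, the gene of PU.1, stood at 3.08, 8.40, 13.9 and 12.9 CPM in ALAS1/2-KO, against 9.39, 10.3 and 13.6 CPM in WT (limma adjusted p = 0.668).

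Hpgd, the enzyme that begins prostaglandin breakdown, kept the order of most members among the ALAS1/2-KO libraries only. Its range there was narrow, 1.33-fold against 1.45-fold for Lcp1. It stood at 61.3, 63.1, 81.3 and 80.7 CPM in ALAS1/2-KO, against 94.1, 119.9 and 99.2 CPM in WT, with no overlap (exact two-sided permutation p = 0.0286, the smallest that the 35 regroupings allow). The log2 fold change was -0.55 (SE 0.15) and missed the limma threshold, with adjusted p = 0.0712. The exact permutation p of the other members, computed on CPM, ran from 0.171 for Fcna to 0.971 for Cd5l and Ctss.

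ALAS1/2-KO replicates 1 and 2 stood apart on these genes, so the comparison was also made without them. With the 2 remaining ALAS1/2-KO libraries against the 3 WT libraries, 7 of 33 members were called higher in limma and 0 lower, against 4.67% of all genes in each direction (9.33% either way). Cd163 (log2 fold change 1.06, adjusted p = 0.0183), Fcgr3 (0.72, 0.0193), Ctss (0.66, 0.0194), Mpeg1 (0.72, 0.02), Adgre1 (0.74, 0.0241), Cd5l (0.66, 0.0392) and Slc11a1 (0.73, 0.0428) were those called. The median over the members was then 0.29. The libraries were left out with their low macrophage levels known, which itself raises the ALAS1/2-KO mean of every member, so these calls are a description of replicates 3 and 4. Leaving out replicate 1 alone gave 0 members called in either direction by limma, against 3.21% of genes higher and 3.41% lower (6.63% either way), with 2 of 33 members at an unadjusted p under 0.05, against 22.8% of all genes.

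Each member was also set against the mean log2 CPM of the 3 C1q genes in the same library. Whether C1q RNA per macrophage differed between the groups was not tested, so a difference on this scale can lie in the member or in C1q. On this scale Laptm5 stood at -1.44 ± 0.06 in ALAS1/2-KO and -1.38 ± 0.04 in WT (SD, n = 4 and 3), and Folr2 at -1.92 ± 0.05 and -1.94 ± 0.16. Of the 30 members other than C1q, 4 had all ALAS1/2-KO values above the highest WT value, against 5.51% of all genes, and 1 was lower, against 1.99%. Those higher were Ctss, Cd5l, Cybb and Mpeg1, and the lower one was Lyz2. This scale adds the spread of C1q to every gene that does not follow it, which lowers the shares over all genes. On CPM, the groups did not overlap for 22.7% of all genes. The shares on the C1q scale are therefore not a like measure for the members.

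Ctss relative to C1q was -0.02 ± 0.08 in ALAS1/2-KO and -0.34 ± 0.07 in WT on the log2 scale. Cd5l was 1.49 ± 0.08 in ALAS1/2-KO and 1.18 ± 0.15 in WT. Lyz2 was -0.48 ± 0.07 in ALAS1/2-KO and -0.10 ± 0.14 in WT. For these genes replicates 1 and 2 of ALAS1/2-KO lay beside replicates 3 and 4, although their CPM differed several-fold. Mpeg1 relative to C1q ranged widely within ALAS1/2-KO, at 1.60, 0.63, 0.20 and 0.33 in replicates 1 to 4, against -0.20, -0.28 and -0.05 in WT. Hpgd and Lcp1, at 1.35 and 1.01 in ALAS1/2-KO replicate 1 against -0.87 and -1.08 in replicate 3, had the widest ranges within ALAS1/2-KO, 2.22 and 2.10.

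In a limma fit with the C1q level as a covariate, 2 of 30 members were called higher and 0 lower, against 4.66% and 5.48% of all genes (10.1% either way). They were Mpeg1 (log2 fold change 0.56, SE 0.12, adjusted p = 0.0194) and Ctss (0.36, SE 0.10, adjusted p = 0.0477). Of the 30, 9 had an unadjusted p under 0.05, where 26.5% of all genes did. Nearest to the threshold were Hpgd (-0.46, SE 0.13) and Adgre1 (0.40, SE 0.11), each with limma adjusted p = 0.0515. Lyz2 (-0.38, SE 0.11), Cybb (0.50, SE 0.15) and Cd5l (0.35, SE 0.12) did not pass either, with limma adjusted p = 0.0598, 0.0613 and 0.0827. The calls depended on single libraries. Ctss lost its call without ALAS1/2-KO replicate 1, 3 or 4 or WT replicate 1 or 2 (limma adjusted p = 0.052, 0.188, 0.171, 0.121 and 0.164). Mpeg1 lost its call without ALAS1/2-KO replicate 3 or 4 or WT replicate 1 or 2 (limma adjusted p = 0.104, 0.0842, 0.0594 and 0.109). Both lost it without ALAS1/2-KO replicates 1 and 2 together (limma adjusted p = 0.645 for Ctss and 0.67 for Mpeg1). The C1q fit was added after seeing the data and assumes the same slope on C1q in both groups.

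**Figure D3:**
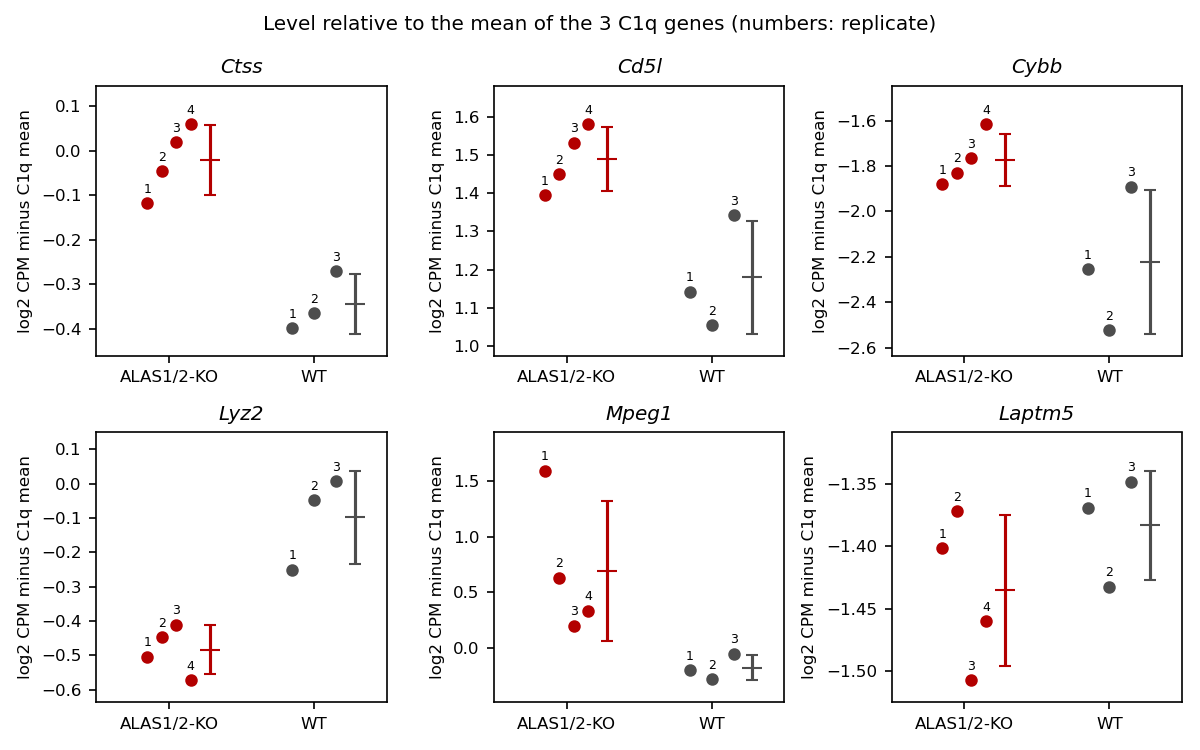
Log2 CPM minus the mean log2 CPM of C1qa, C1qb and C1qc in the same library for 6 members (points, numbered by replicate) with group mean and SD (n = 4 ALAS1/2-KO, n = 3 WT). Ctss, Cd5l, Cybb and Mpeg1 lie higher in all 4 ALAS1/2-KO libraries than in WT and Lyz2 lower, while Laptm5 overlaps; the vertical scales differ between panels.

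Further macrophage receptors had list medians of -2.06, -0.48, 0.39 and 0.32 in ALAS1/2-KO replicates 1 to 4, as log2 difference from the WT mean. Of 32 further receptors of macrophages, 30 were tested and 0 were called by limma or limma voom (1 at an unadjusted p under 0.05), with a median log2 fold change of -0.45. Mrc1, the mannose receptor, which sinusoidal endothelium also carries, stood at 14.4, 41.5, 95.1 and 94.9 CPM in ALAS1/2-KO and 78.9, 68.5 and 90.3 CPM in WT, and Mertk, a receptor for apoptotic cells, averaged 36.8 ± 17.2 and 30.6 ± 4.49 CPM (SD, n = 4 and 3). Of 26 genes of myeloid signalling and cytoskeleton, limma and limma voom called 0 (0 at an unadjusted p under 0.05, median -0.46), with Unc93b1, a trafficking partner of toll-like receptors, at 45.1 and 49.1 CPM and Pik3ap1, a signalling adaptor, at 44.6 and 38.1 CPM in ALAS1/2-KO and WT. Of 11 macrophage transcription factors, 0 were called by either (0 at an unadjusted p under 0.05, median -0.56). Nr1h3, which encodes the sterol receptor LXRα and is also a hepatocyte gene, averaged 54.6 ± 5.08 CPM in ALAS1/2-KO and 55.4 ± 5.42 CPM in WT (SD, n = 4 and 3).

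Lists that hepatocytes also express lay closer to WT in ALAS1/2-KO replicate 1, with medians of -0.21 for lysosomal genes, -0.32 for heme and iron recycling and -0.35 for ligands and partners. Of 16 lysosomal genes limma and limma voom called 0 (5 at an unadjusted p under 0.05), with a median log2 fold change of 0.0048; Ctsb, cathepsin B, stood at 686 ± 135 CPM in ALAS1/2-KO and 769 ± 41.9 CPM in WT, and Lamp2 at 539 ± 36.4 and 630.3 ± 24.9 CPM (SD, n = 4 and 3). Among 9 genes of heme and iron recycling 1 was called higher and 0 lower, against 2.91% and 2.19% of all genes. It was Nfe2l2, which encodes the stress regulator NRF2, at 86.1 ± 7.33 CPM in ALAS1/2-KO and 60.5 ± 4.79 CPM in WT (log2 fold change 0.51, limma adjusted p = 0.0344). The other way lay the median log2 fold change of the 9, at -0.17, and the lowest was -0.53. Ligands and partners of the member proteins had log2 fold changes from -1.50 to 0.70 (median -0.17). In limma, 9 of the 16 had an unadjusted p under 0.05, where 23.7% of all genes did. Against 2.91% and 2.19% of all genes, 3 of the 16 were called higher and 0 lower. These were the C1q-associated proteases C1ra (360.4 ± 11.1 CPM in ALAS1/2-KO and 238 ± 17.0 CPM in WT, limma adjusted p = 0.0157) and C1s1 (751 ± 70.2 and 491 ± 36.7 CPM, limma adjusted p = 0.0256), and Masp2, the protease of the ficolin pathway (378 ± 38.3 and 250.1 ± 17.3 CPM, limma adjusted p = 0.0284). C1ra and C1s1 thus rose by 1.52-fold and 1.53-fold, with SEs of 0.095 and 0.11 on the log2 scale, against 0.59 to 0.60 for the C1q chains; whether the proteases and the chains differ was not tested.

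Endothelial and stellate cell markers were also low in ALAS1/2-KO replicates 1 and 2, while T and NK cell markers (3 genes) had a median of -1.85 in replicate 1 and 0.58 in replicate 2. The median log2 difference from the WT mean was -2.15, -0.62, 0.36 and 0.27 for the members in ALAS1/2-KO replicates 1 to 4, and -2.42, -1.11, -0.11 and -0.59 for 20 endothelial markers. For 14 stellate cell markers it was -2.66, -1.54, -0.36 and -1.01, and for 15 hepatocyte markers 0.07, -0.04, -0.04 and 0.04. Limma called 0 of the 20 endothelial and 0 of the 14 stellate genes, and limma voom called 1 and 0. In limma 7 and 12 of them had an unadjusted p under 0.05, where 23.7% of all genes and 1 of the 33 members did. Median log2 fold changes were -1.02 for the endothelial and -1.37 for the stellate list. Aqp1 and Ehd3, the highest in CPM of the endothelial list, averaged 41.9 and 37.3 CPM in ALAS1/2-KO and 88.3 and 69.0 CPM in WT, and Dcn and Ecm1 of the stellate list 68.4 and 52.9 CPM in ALAS1/2-KO and 141 and 124 CPM in WT.

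The ratio of macrophage to other marker genes depended on the list it was set against. Summed CPM of the 33 members over that of the 20 endothelial markers was 3.85, 3.73, 3.94 and 4.87 in ALAS1/2-KO replicates 1 to 4, against 2.61, 2.61 and 2.84 in WT replicates 1 to 3. Over the stellate markers it was 7.32, 8.40, 6.86 and 9.02 in ALAS1/2-KO, against 3.14, 5.30 and 4.09 in WT. Both ratios were higher in all ALAS1/2-KO libraries than in WT, and replicates 1 and 2 did not stand apart on them. Over B cell and MHC class II markers the ratio was 12.3, 7.05, 8.92 and 9.65 in ALAS1/2-KO, against 12.9, 10.1 and 11.96 in WT, with groups that overlapped and a lower mean in ALAS1/2-KO. Over the further macrophage receptors the ratio was 4.70 ± 0.242 in ALAS1/2-KO and 4.94 ± 0.129 in WT (SD, n = 4 and 3). These ratios are given as a description, without a test, and the part of the other cell types in the macrophage differences was not tested.

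**Figure D4:**
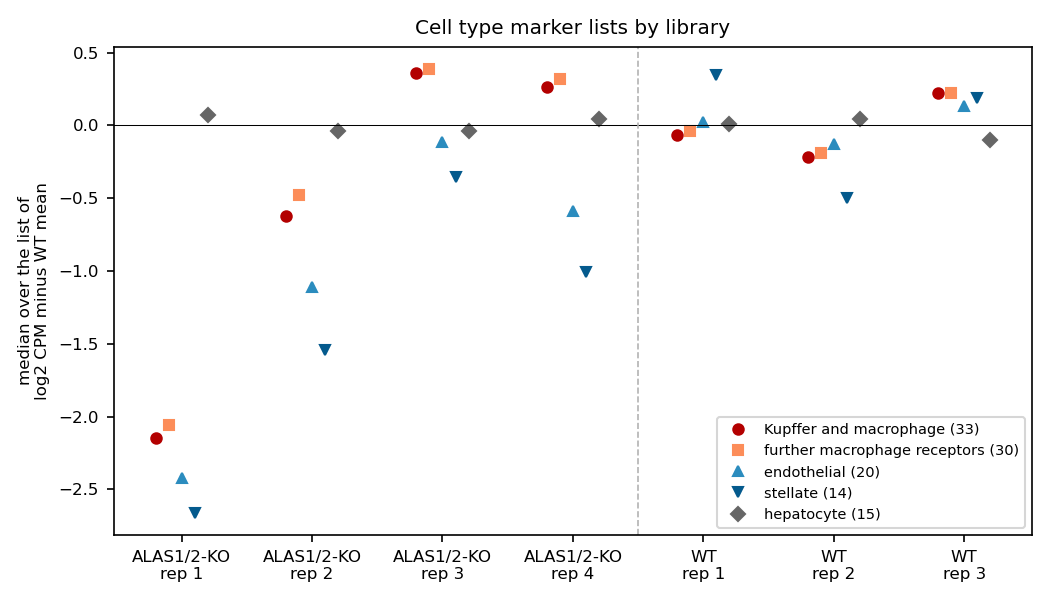
Median over each gene list of log2 CPM minus the gene's WT mean, by library (4 ALAS1/2-KO on the left, 3 WT on the right; number of genes in brackets). Macrophage, endothelial and stellate lists are lowest in ALAS1/2-KO replicate 1, at -2.15, -2.42 and -2.66, and the hepatocyte list stays within 0.10 of 0.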

How the data were processed

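Sample titles gave the group and the replicate number. Per the submitters' processing notes, cutadapt and HISAT2 were used with the mm10 build; sources used here do not give versions, counter, annotation or strand handling, so overlapping and near-identical genes are uncertain. The authors deposited log2 CPM for 12151 genes, with a floor of 0.0676 CPM and a scaled library size; values off the log2 scale, less the floor, were whole reads for 100% of values in each library (tolerance 0.01). The log2 values were tested as deposited.

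Genes with at least 1 CPM in 3 libraries were fitted with limma 3.58.1 in R 4.3.3 (intensity trend, robust variance, two-sided, Benjamini-Hochberg over 12105 genes); the procedure was tested on simulated data. All 33 members passed the filter. Exact permutation tests used CPM. Exon lengths and positions came from GENCODE M21 (mm10). Members, lists and alternatives were chosen with earlier results of these data known. Values per library are given for a fixed set of markers and the largest fold changes, and for Cd163, Ctss, Mpeg1 and Hpgd, chosen after their values were seen; from other lists, up to 4 called genes or the 2 most abundant, of which 1 gene is not reported here. Alternatives changed the pseudocount, filter, scaling, variance model, weights, test, block and libraries; the C1q covariate was added after seeing the data. The part of counting error in the spread between libraries was not computed. It is larger for genes with few reads, such as Hbb-bt at 0.092 CPM in ALAS1/2-KO replicate 3.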

Additional observations from a re-analysis of the deposited data

How the results depend on the processing

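The count of members called stayed at 0 in both directions under pseudocounts of 1 and 0.1, no filter, a filter of 5 CPM, CPM rescaled to listed reads, scaling without mitochondrial and the 20 most abundant genes, quantile normalization, limma without trend, limma voom, the replicate block and each fit without 1 library. With array weights 1 member, Hpgd, was called lower, and without ALAS1/2-KO replicates 1 and 2 together 7 were called higher. The median log2 fold change of -0.48 was -0.15 with CPM rescaled to listed reads, which moves the median of all genes to 0.32, 0.087 with array weights, 0.29 without ALAS1/2-KO replicates 1 and 2 together, and -0.79 to 0.034 without 1 library at a time. With the replicate number as a block it was -0.74 and the count over all genes was 72 against 617; same-numbered libraries deviated together with r = -0.0303, 0.0549 and 0.175 across genes, so the number was not taken as a pairing. Over all genes the count was 306 without trend, 2001 with array weights and 2735 with rescaling to listed reads, and it ran from 100 to 802 without 1 library and was 1130 without ALAS1/2-KO replicates 1 and 2. Members turned above 0 with array weights were Clec4f (0.15), Timd4 (0.18), Vsig4 (0.22), Cd163 (0.69), Folr2 (0.081), Cd5l (0.41), C1qb (0.024), C1qc (0.023), Adgre1 (0.47), Csf1r (0.29), Fcgr3 (0.36), Cd68 (0.22), Ctss (0.37), Lgmn (0.065), Slc11a1 (0.53), Cybb (0.62), Ncf1 (0.22), Ptprc (0.13), Itgb2 (0.20) and Spi1 (0.087). Without ALAS1/2-KO replicates 1 and 2 together they were Clec4f (0.37), Timd4 (0.34), Vsig4 (0.43), Marco (0.27), Cd163 (1.06), Folr2 (0.29), Cd5l (0.66), C1qa (0.26), C1qb (0.28), C1qc (0.30), Adgre1 (0.74), Csf1r (0.48), Fcgr3 (0.72), Fcer1g (0.22), Tyrobp (0.18), Cd68 (0.39), Ctss (0.66), Lgmn (0.28), Slc11a1 (0.73), Cybb (0.81), Ncf1 (0.51), Ptprc (0.26), Laptm5 (0.18), Itgb2 (0.41), Aif1 (0.046) and Spi1 (0.29), and with CPM rescaled to listed reads Cd163 (0.20), Cd5l (0.049), Adgre1 (0.020), Ctss (0.061), Slc11a1 (0.099), Cybb (0.19) and Lcp1 (0.14). Leaving out 1 library at a time gave log2 fold changes that crossed 0 for Clec4f -0.80 to 0.034, Timd4 -0.91 to 0.083, Vsig4 -0.76 to 0.076, Cd163 -0.57 to 0.40, Cd5l -0.62 to 0.30, Adgre1 -0.68 to 0.35, Csf1r -0.80 to 0.12, Fcgr3 -0.71 to 0.25, Cd68 -0.71 to 0.097, Ctss -0.60 to 0.32, Slc11a1 -0.56 to 0.41, Cybb -0.47 to 0.45, Ncf1 -0.79 to 0.11, Ptprc -0.70 to 0.060, Itgb2 -0.83 to 0.096 and Spi1 -0.65 to 0.067; leaving out ALAS1/2-KO replicate 1 reversed 16 members, while leaving out ALAS1/2-KO replicate 2, WT replicate 1 or WT replicate 3 reversed 1 each. At a given C1q level, the 2 members called higher became 4 with quantile normalization, 0 without ALAS1/2-KO replicates 1 and 2 together, and 0 to 4 without 1 library at a time; 0 called lower became 1 with CPM rescaled to listed reads and 0 to 1 without 1 library. The cause of these shifts was not tested.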

Other observations

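Scarcer cell types were less well covered in the same libraries. Of 15 B cell and MHC class II markers 13 were tested and 2 fell, where 2.19% of all genes were called lower. They were Ighm, the heavy chain of IgM, from B cells, at 3.97 ± 1.22 CPM in ALAS1/2-KO and 11.4 ± 2.46 CPM in WT (SD, n = 4 and 3, limma adjusted p = 0.029), and Cd79a, a B cell receptor chain, at 0.57 ± 0.28 and 2.61 ± 0.55 CPM (limma adjusted p = 0.0335). Limma voom called 3 of the 13. The list as a whole was mixed. Its median log2 fold change was -0.93 and its highest 0.18, with 4 of 13 at an unadjusted p under 0.05 in limma, where 23.7% of all genes were. Its summed CPM was 49.1, 205, 322 and 277 in ALAS1/2-KO replicates 1 to 4, against 163, 188 and 207 in WT. As log2 difference from the WT mean, its list medians in ALAS1/2-KO replicates 1 to 4 were -2.34, -0.38, -0.17 and -0.13. Of 7 cholangiocyte markers 2 were tested, and Spp1, osteopontin, fell to 2.18 ± 1.02 CPM in ALAS1/2-KO, against 13.9 ± 2.95 CPM in WT (limma adjusted p = 0.0076). Of 8 red cell markers 5 were tested, and Hbb-bt, a β globin, fell to 0.35 ± 0.23 CPM, against 2.07 ± 0.97 CPM in WT (limma adjusted p = 0.0483), a call that limma voom, with 0 of the 5 called, did not make. All 5 had an unadjusted p under 0.05 in limma, where 23.7% of all genes did. Their median log2 fold change was -2.19 and their highest -1.52.

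Markers of recruited myeloid cells were low. Of 14 monocyte and recruited macrophage markers 8 were tested, and their summed CPM was 7.86 to 39.9 in ALAS1/2-KO and 30.9 to 34.6 in WT, against 603 to 2868 and 1897 to 2482 for the 33 Kupffer cell and macrophage genes. Limma and limma voom called 0 of the 8 (2 at an unadjusted p under 0.05), with Lgals3 at 10.3 CPM in ALAS1/2-KO and 11.6 CPM in WT and Plac8 at 9.85 and 9.37 CPM. Of 11 neutrophil markers 3 were tested and 0 called by either (2 at an unadjusted p under 0.05), with Csf3r at 5.60 CPM in ALAS1/2-KO and 7.003 CPM in WT and S100a9 at 1.80 and 4.65 CPM. Of 12 T and NK cell markers 3 were tested (in ALAS1/2-KO and WT, Cd4 1.96 and 1.84 CPM, Il2rb 1.495 and 1.95 CPM), of 6 dendritic cell markers 2 (Clec9a 3.09 and 2.19 CPM, Siglech 1.07 and 2.05 CPM) and of 4 platelet markers 2 (Itga2b 2.25 and 3.32 CPM, Pf4 0.64 and 1.59 CPM). Limma and limma voom called 0 in each of these lists, with 0, 0 and 1 at an unadjusted p under 0.05. Of 15 hepatocyte markers 2 fell, where 2.19% of all genes were called lower. They were Alb, at 53409 CPM in ALAS1/2-KO, against 97897 CPM in WT (limma adjusted p = 0.00606), and Apoh, at 1330.1 CPM, against 2201 CPM in WT (limma adjusted p = 0.0257). The median log2 fold change of the 15 was -0.04 and the highest 0.415. In limma 4 of the 15 had an unadjusted p under 0.05, where 23.7% of all genes did.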
